A study of Mus musculus with 12 samples.

Results

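GM-CSF and M-CSF are the main growth and survival factors of the myeloid lineage. GM-CSF, encoded by Csf2, is secreted by activated lymphocytes and other cells and is sensed by a receptor with a ligand-binding alpha chain, Csf2ra, and a signalling beta chain, Csf2rb, which is shared with the receptors for IL-3 and IL-5 and signals through JAK2 and STAT5. Mice carry a second beta chain gene, Csf2rb2, whose product serves the IL-3 receptor alone. M-CSF, encoded by Csf1, is sensed by the receptor tyrosine kinase Csf1r, which also binds IL-34 and on which most tissue macrophages depend. Both axes shape the macrophages and dendritic cells of tumors.

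The levels of these 6 genes, Csf2, Csf1, Csf2ra, Csf2rb, Csf2rb2 and Csf1r, were followed across cell clusters and tumors by single-cell RNA sequencing. Each was found by its symbol among the 27457 gene rows of the series, and all 6 had counts. The tumors were grown under the skin of female mice of 8 to 12 weeks from MC38, a mouse colon carcinoma line of C57BL/6J origin. Every host carried at least 1 C57BL/6J (B6) haplotype. The hosts were C57BL/6J or F1 offspring of C57BL/6J and CC001/UncJ, CC002/UncJ, CC007/UncJ, CC036/UncJ, CC075/UncJ, CC079/TauUncJ or CC080/TauUncJ, inbred strains of the Collaborative Cross (CC). Animals were given 1 dose of 200 µg, either anti-PD-1 (aPD1) or its isotype control, and tumors were taken after 48 h and sorted mostly for CD45-positive cells. Each of 12 libraries pooled 4 tumors told apart by hashtag antibodies, which gave 93126 cells of 48 tumors.

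The study classed CC001, CC002 and CC075 as responder strains and CC036, CC079 and CC080 as non-responder strains from tumor growth under aPD1. There were 10 responder isotype tumors with 15734 cells, 10 responder aPD1 tumors with 22598 cells, 9 non-responder isotype tumors with 19780 cells and 9 non-responder aPD1 tumors with 17756 cells. The other tumors, of B6 and CC007 hosts, had no class and entered the comparison of host strains only. A tumor gave 53 to 3082 cells and 88816 to 17713491 unique molecular identifiers (UMIs, each marking 1 captured transcript), with a median of 3333.5 UMIs per cell. No hashtag was shared between isotype and aPD1 tumors, so hashtag and treatment cannot be told apart. Each pool held tumors of 2 strains, so host strain and pool are partly confounded. One animal identifier stood on 2 tumors, and 10176 cells (10.9%) carried a barcode sequence also used in another library.

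Levels are given as UMIs of the gene per 1000000 UMIs of the cells summed (CPM). Since each UMI is 1 transcript end, levels of different genes can be compared without correction for length. The 27 clusters are those of the authors. From marker genes, 10 were called monocytes/macrophages (68059 cells, macrophages for short), 9 T/NK cells (12021 cells), and clusters 14, 6 and 11 conventional dendritic cells of type 2 (cDC2), type 1 (cDC1) and migratory dendritic cells (DC), 7817 cells together. Cluster 18 was called plasmacytoid dendritic cells (pDC), cluster 16 granulocytic cells and cluster 22 fibroblasts, while clusters 20 and 25 stayed unnamed. The clusters were made from the same transcripts, so levels between clusters are descriptions without a test.

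Csf2 lay almost wholly in T/NK cells and the receptor genes mainly in macrophages. Of 1959 UMIs of Csf2, 98.3% came from T/NK clusters, which held 12.9% of all cells. Of 131279 UMIs of Csf1r, 94.6% came from macrophage clusters, which held 73.1% of the cells. Macrophages also held 88.0% of 67828 UMIs of Csf2ra, 78.4% of 46698 of Csf2rb and 78.0% of 23035 of Csf2rb2. The dendritic clusters 6, 11 and 14 added 18.9% of Csf2rb and 17.5% of Csf2rb2, but 3.94% of Csf1r. Csf1 was spread most widely. Of its 7500 UMIs, 46.6% were in clusters 20 and 25, nearly all of them in cluster 20, 24.2% were in macrophages, 20.1% in T/NK cells and 5.03% in granulocytic cells. The cells were sorted mostly for CD45-positive ones, so all these shares depend on the sort and are not those of the whole tumor.

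**Figure D1:**
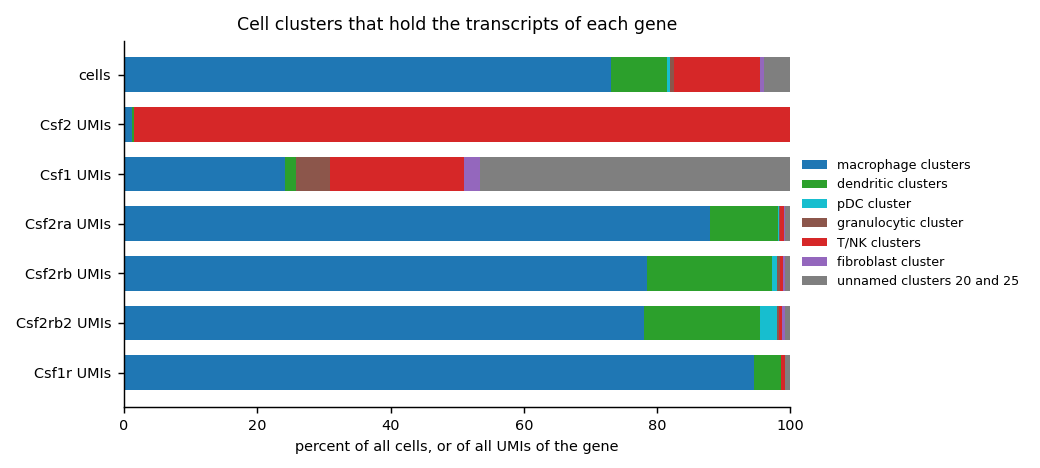
Share of all cells (top bar) and of all UMIs of each gene, in percent (horizontal axis), that lay in each kind of cluster (colors). Csf2 lay almost wholly in T/NK clusters (98.3%), the 4 receptor genes mainly in macrophage clusters (78.0% to 94.6%), and Csf1 was divided between unnamed cluster 20, macrophages and T/NK cells. Shares are those of the sorted cells, mostly CD45-positive, not of the whole tumor.

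Csf2 was highest in T/NK cluster 10, at 548 CPM. The leading genes of this cluster were Dthd1, Tnfsf11, Il13, Ntrk3 and Il4, and it expressed Cd4 at 482 CPM, Cd40lg, the CD40 ligand of helper T cells, at 239 CPM and Cd8a at 51.1 CPM. Csf2 itself was among its 10 leading genes. Cluster 10 held 625 cells and 53.1% of all Csf2 UMIs. In the 7 tumors with at least 20 cells of cluster 10, the level ran from 48.2 to 1713 CPM with a median of 558 (mean 666 ± 521 SD). A UMI of Csf2 was present in 23.8% of these cells, against 0.0147% of macrophages. In the 581 cells with at least 1000 UMIs the share was 25.1%, and 16.4% after these were thinned to 1000 UMIs each. The median depth was 2519 UMIs per cell in cluster 10 and 3481 in macrophages. In the other T/NK clusters it ran from 1343 (cluster 23) to 4577.5 (cluster 1).

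Cluster 13, one of the clusters the study called cytotoxic T lymphocytes (CTL), followed with 158.5 CPM of Csf2. Its mean over the 9 tumors with at least 20 of its cells was lower, at 29.9 ± 34.3 CPM. In 1 CC036 aPD1 tumor, 10 cells of cluster 13 held 78 of the 310 UMIs, and without it the cluster stood at 121 CPM. Cluster 23, led by Il23r and Il17a among others, had 108.6 CPM from 35 UMIs, of which 13 lay in 6 cells of 1 tumor. Natural killer (NK) cell cluster 24 had 59.3 CPM and 12.4% of Csf2 UMIs, and CTL cluster 3 had 17.8 CPM. T/NK clusters 12, 8, 1 and 7 lay between 7.6 and 9.0 CPM, cluster 8 being led by Foxp3, the regulatory T cell factor. Macrophages had 24 UMIs in all (0.0797 CPM), and granulocytic cells, pDC and fibroblasts had none, which allows (3 counts) up to 5.33, 1.88 and 0.961 CPM, counting error only. The mean ± SD over tumors of cluster 10 did not overlap that of cluster 13, next in pooled level, but overlapped that of NK cell cluster 24, next in mean over tumors (68.3 ± 130.5 CPM in 27 tumors). In the order of pooled levels, every neighbouring pair after cluster 10 whose SDs could be compared overlapped, 23 of 24 pairs in all.

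Csf1 had another order. Granulocytic cluster 16, whose markers S100a8, S100a9 and Retnlg led it, stood at 670 CPM. In the 7 tumors with at least 20 granulocytic cells it ran from 317 to 1845 CPM (mean 900 ± 524 SD), with no overlap with the next cluster, although these cells were shallow (median 815 UMIs). Cluster 20 followed at 129 CPM, T/NK cluster 10 at 102 CPM, CTL cluster 3 at 86.1 CPM and fibroblasts at 59.2 CPM. T/NK cluster 8 had 35.9 CPM. In macrophage clusters Csf1 lay between 2.0 CPM (cluster 26) and 16.3 CPM (cluster 27). Cluster 20 was led by Gm45589, Rhox5 and Kirrel3 and met no marker list, so its cell type is not given here. It held 3411 cells, and 31.1% of them had a UMI of Csf1.

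**Figure D2:**
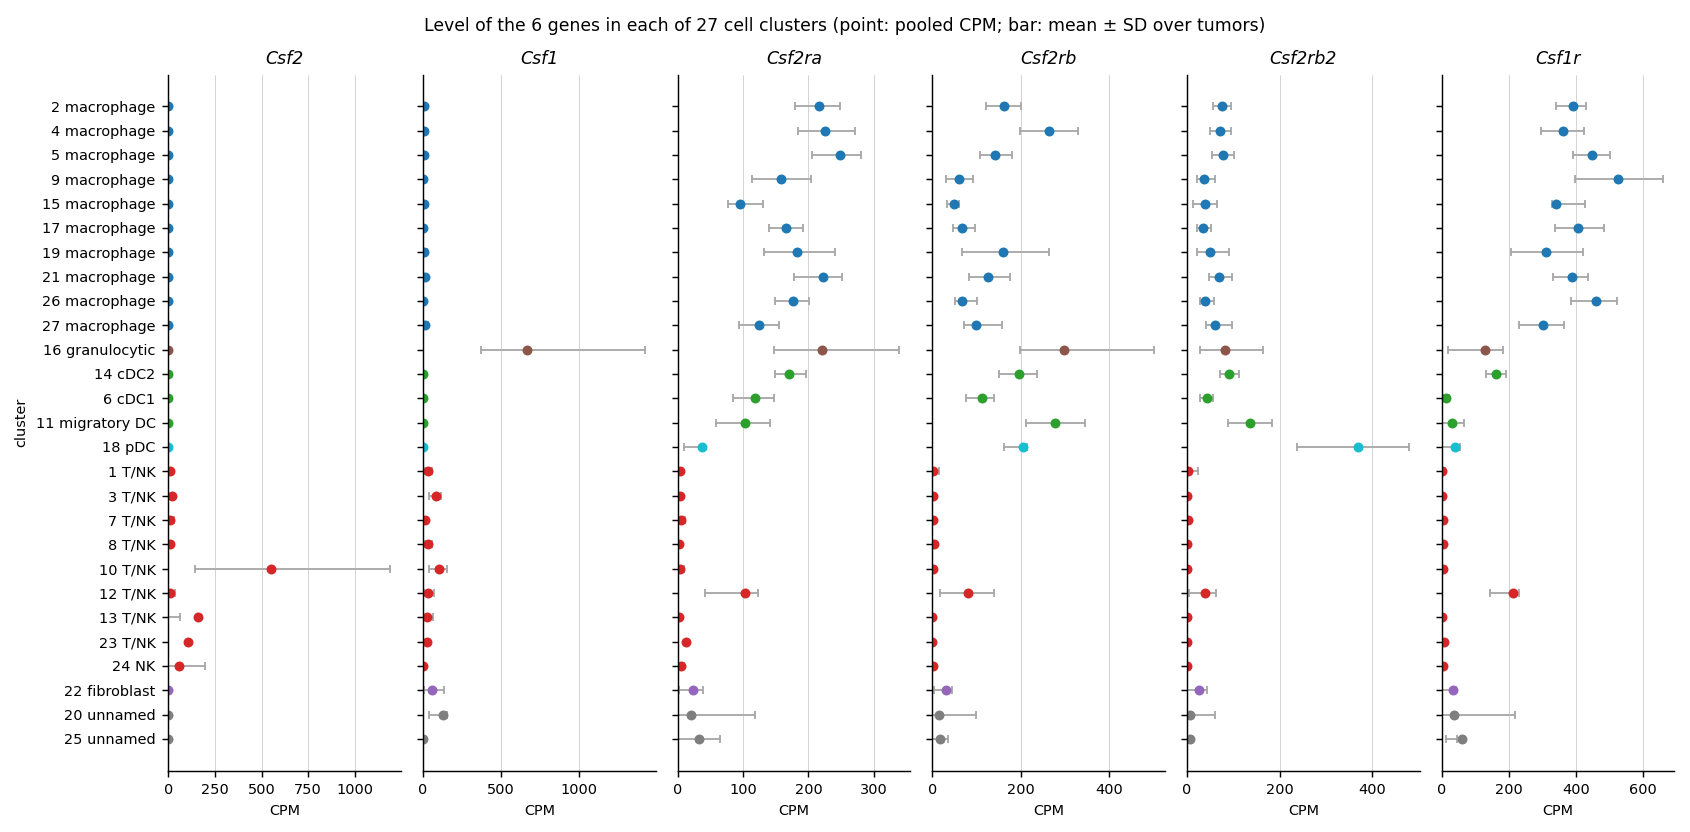
Level of each of the 6 genes (horizontal axis of each panel, CPM) in the 27 clusters (vertical axis), with points for the pooled level, colored by kind of cluster, and bars for the mean ± SD over tumors with at least 20 cells of the cluster, drawn from 0 where the SD exceeds the mean. Csf2 peaks in T/NK cluster 10 (548 CPM), Csf1 in granulocytic cluster 16 (670 CPM), Csf2rb2 in pDC (368 CPM), and Csf1r in the macrophage clusters (302 to 524 CPM).

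The beta chain genes Csf2rb and Csf2rb2 are near-identical neighbours on chromosome 15 of GRCm38. Csf2rb lies at chr15:78325752-78353847 on the plus strand and Csf2rb2 at chr15:78282507-78305721 on the minus strand. In GENCODE vM21, their longest coding sequences had 2688 and 2634 bases. Over the 2628 bases aligned without gaps they were 95.2% identical, with 125 substitutions, and the longest identical run was 242 bases. Of all windows of 90 bases of the Csf2rb coding sequence, 12.6% occurred unchanged in Csf2rb2, so part of the reads cannot be assigned to either gene and the split between them is uncertain. A pair of stretches of 120 coding bases shows how far the genes can be told apart. In the least alike stretch without gaps, the genes differed at 17 positions, which are in capitals.

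Csf2rb coding bases 358 to 477: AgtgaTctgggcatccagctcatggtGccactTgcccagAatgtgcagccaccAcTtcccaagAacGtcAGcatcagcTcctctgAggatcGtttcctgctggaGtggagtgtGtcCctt

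Csf2rb2 coding bases 361 to 480: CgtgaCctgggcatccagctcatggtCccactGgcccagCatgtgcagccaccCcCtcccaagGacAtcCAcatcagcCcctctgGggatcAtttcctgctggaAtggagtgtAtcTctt

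In the first 120 coding bases, close to the 5′ end that the 5′ libraries capture, they differed at only 4 positions, again in capitals.

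Csf2rb coding bases 1 to 120: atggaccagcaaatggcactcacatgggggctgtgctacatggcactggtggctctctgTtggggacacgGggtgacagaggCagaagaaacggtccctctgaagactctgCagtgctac

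Csf2rb2 coding bases 1 to 120: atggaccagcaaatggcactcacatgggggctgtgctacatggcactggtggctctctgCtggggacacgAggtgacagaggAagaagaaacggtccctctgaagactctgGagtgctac

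The other members lie apart from each other: Csf2 at chr11:54247271-54249667, Csf2ra at chr19:61223957-61228429, Csf1 at chr3:107741048-107760469 and Csf1r on chromosome 18. All 6 are protein-coding genes. The reads were aligned to the B6 reference, although F1 hosts also carry a CC haplotype, and an effect of strain variants on the counts was not tested.

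Csf2ra, the alpha chain that binds GM-CSF, was highest in macrophage cluster 5 (248 CPM, 243 ± 37.2 over 47 tumors), and clusters 4, 21, 16 and 2 followed between 216 and 225 CPM. Macrophage cluster 26 had 177 CPM and cDC2 171 CPM. Migratory DC had 103 CPM and macrophage cluster 15, the lowest of the macrophage clusters, 95.2 CPM. A gap that the SDs did not bridge separated cluster 15 from pDC, at 36.9 CPM. In the T/NK clusters other than cluster 12, Csf2ra lay at 12.4 CPM or less.

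Csf2rb, the shared signalling chain, was highest in granulocytic cells (297 CPM from 167 UMIs), which also led for Csf1, and then in migratory DC (278 CPM), macrophage cluster 4 (265 CPM), pDC (205 CPM) and cDC2 (196 CPM). Macrophage clusters 26, 17, 9 and 15 lay between 50.1 and 68.0 CPM. All 25 neighbouring pairs in this order overlapped in their SD, but the ends did not. Within tumors, macrophage cluster 4 exceeded cluster 26 in 44 of 44 tumors that had at least 20 cells of both (264 ± 66.3 against 77.2 ± 25.2 CPM). Macrophage cluster 2 exceeded cluster 26 in 47 of 47 tumors. Migratory DC exceeded cDC2 in 35 of 39 tumors (279 ± 67.3 against 195 ± 43.3 CPM).

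Csf2rb2 was highest in pDC, at 368 CPM, with 211.6 to 528 CPM in the 6 tumors with at least 20 such cells. Migratory DC followed at 135 CPM without overlap of the SDs, cDC2 at 90.5 CPM, and macrophage clusters 5 and 2 at 77.2 and 75.9 CPM. In the 6 tumors with both cell types, pDC exceeded migratory DC every time (357 ± 121 against 126 ± 57.1 CPM). A UMI of Csf2rb2 was found in 55.0% of pDC, against 0.145% of the CTL. In the 431 pDC with at least 1000 UMIs the share was 57.3%, and 30.2% after thinning. The balance of the paralogs thus differed by cell type. The ratio of Csf2rb to Csf2rb2 UMIs was 0.556 in pDC, where Csf2rb2 was the more abundant. It was 3.67 in macrophage cluster 4 and 3.63 in granulocytic cells, and between 1.27 and 3.21 in the other macrophage and dendritic clusters.

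Csf1r, the M-CSF receptor, was highest in macrophage cluster 9, at 524 CPM (528 ± 131 over 20 tumors). Lyve1, Folr2 and Cd163, markers of resident macrophages, were among the leading genes of that cluster. Clusters 26, 5 and 17 followed at 460, 447 and 406 CPM, and the other macrophage clusters lay between 302 and 389 CPM. The SDs of neighbouring macrophage clusters overlapped. The last of them, cluster 27, did not overlap T/NK cluster 12 (211 CPM), but cluster 19 did, with 313.5 ± 105.8 against 186.9 ± 42.7 CPM over tumors. After cluster 12 came cDC2 (161 CPM) and granulocytic cells (130 CPM). Only 14.1 CPM was found in cDC1 and 32.1 CPM in migratory DC. Macrophage cluster 26 exceeded cDC2 in 44 of 44 tumors (456 ± 68.9 against 161 ± 30.1 CPM).

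Csf1r and Csf2rb were therefore not ordered alike among myeloid clusters. The ratio of Csf1r to Csf2rb UMIs was 8.64 in macrophage cluster 9, 6.78 in cluster 15 and 6.76 in cluster 26, but 1.36 in cluster 4. Cluster 4 had 7 of the 9 monocyte/macrophage markers at 100 CPM or more, but its leading genes, among them Adgre4, Ace, Chil3, Vcan and Plac8, are known from monocytes and included none of those markers, so its contrast with the other clusters is not one among macrophages alone. Cluster 15 likewise had 7 of those markers at this level, but none among its leading genes, of which Ctsk, Acp5 and Atp6v0d2 are known from osteoclasts. The ratio was 0.821 in cDC2, 0.126 in cDC1 and 0.115 in migratory DC. Cluster 4 also had less Csf1r than cluster 26 in 38 of 44 tumors (360 ± 64.5 against 453 ± 68.9 CPM). It had less Csf1r than cluster 9 in 15 of 19 tumors.

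**Figure D3:**
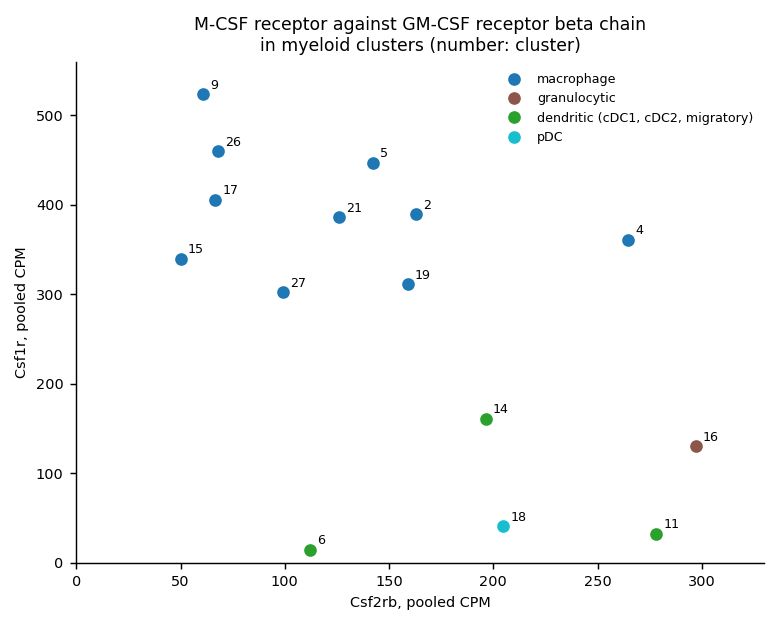
Pooled level of Csf1r (vertical axis, CPM) against Csf2rb (horizontal axis, CPM) in the 15 myeloid clusters, each labelled with its number and colored by kind. Macrophage clusters 9, 26, 17 and 15 combine 339.8 to 524 CPM of Csf1r with 50.1 to 68.0 CPM of Csf2rb, cluster 4 stands at 265 CPM of Csf2rb, and cDC1 (cluster 6) and migratory DC (cluster 11) lie at the bottom with 14.1 and 32.1 CPM of Csf1r.

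Cluster 12 needs care. It was called T/NK from its markers, with granzyme, perforin and hemoglobin genes among its leading genes, but it also carried 211 CPM of Csf1r, 104 CPM of Csf2ra and 80.2 CPM of Csf2rb. It held 4.45% of the T/NK cells but 85.1% of their Csf1r UMIs, 68.6% of their Csf2ra and 81.1% of their Csf2rb. Without it, T/NK cells had 3.06 CPM of Csf1r, 3.93 CPM of Csf2ra and 1.55 CPM of Csf2rb. The summed level of all 9 macrophage markers in T/NK cells ran from 150 to 4085 CPM over 47 tumors, and from 45.2 to 375 CPM without cluster 12. Whether its cells are doublets was not tested. Csf2 and Csf1 in T/NK cells hardly drew on cluster 12, which held 1.19% and 5.70% of their UMIs.

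Genes with the most similar pattern were ranked by Pearson's correlation over the 27 clusters on log2(CPM + 1), among 7374 genes that reached 50 CPM in a cluster. For Csf2 these were Ccl1 (0.953), Tnfsf11 (0.951), Lta (0.913), Ccdc184 (0.902) and Sytl3. Among those for Csf2ra were Spi1 (0.983), Pira2, Card9 and Tlr13. For Csf2rb they were Csf2rb2 (0.975), Pirb, Prkcd, Pira2 and Aph1c, and for Csf2rb2 they were Csf2rb, Pirb, Prkcd, Ctsh and Pld4. For Csf1r they were Clec4a2 (0.990), Tgfbi, Fcgr1, Clec4a3 and Sirpa. No gene followed Csf1 closely, and the nearest were Stxbp5 (0.704), Nudt4, Ahi1, Klhdc4 and Rnf19a. These correlations describe clusters of the same libraries, which share depth and cells.

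Related cytokines and receptors from fixed lists had their own places. Il3, the neighbour of Csf2 in the beta common family, had 90 UMIs and was highest in CTL cluster 13 (36.3 CPM), where Ifng (6314 CPM), Il2 (722 CPM) and Xcl1 (5482 CPM) were also highest. Il5 had 109 UMIs and was highest in cluster 10 (41.1 CPM), beside Lta (149 CPM) and Bhlhe40 (988 CPM). Bhlhe40 is a transcription factor known to promote Csf2 in T cells. Of the other factors listed for this role, Batf was also highest in cluster 10 (199 CPM). Nfkb1, Rora, Nfatc1, Nfatc2 and Rela were highest in clusters 13, 23, 15, 19 and 11. Cluster 10 thus led for Csf2 and Il5, and cluster 13 for Il3. Il34, the other ligand of Csf1r, was highest in fibroblasts (94.5 CPM) and cluster 20 (61.1 CPM). Kitl was highest in fibroblasts (150.5 CPM), and Csf3r, the G-CSF receptor, in granulocytic cells (1469 CPM). Il3ra, the IL-3 receptor alpha chain, had 25.7 CPM in pDC and at most 42.9 CPM in any cluster. Il5ra had 30 UMIs and Csf3 17 in the whole series. Jak2, the kinase downstream of the beta chain, was highest in migratory DC (640 CPM), and Cish, a STAT5 feedback gene, in cluster 10 (150.1 CPM). Of the other listed STAT5 feedback and target genes, only Bcl2l1 was also highest in cluster 10 (256 CPM).

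Host strain was compared next, since it needs no response class. Counts were summed per tumor, which was the replicate, and tested with edgeR's quasi-likelihood F test over the 8 strains with treatment in the model, adjusting p over all genes tested by Benjamini-Hochberg. In such sums, fewer cells of a subtype and less RNA per cell cannot be told apart. In macrophages, 3 of the 5 members tested differed among strains at an adjusted p under 0.05. This has to be read against 50.5% of all 13010 genes. Csf2 did not pass the filter on low counts there. All 48 tumors entered for macrophages and for all cells, and 47 for T/NK and dendritic cells, since 1 CC007 tumor had under 20 of these.

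Csf2rb in macrophages had a median of 80.7 CPM in 8 CC001 tumors (57.3 to 132.9), 107 in 6 CC079 tumors (63.4 to 115.3) and 109 in 6 CC080 tumors (77.4 to 171.8). It had 170 CPM in 6 B6 tumors (117.1 to 199.5), 163 in 6 CC036 tumors (101.7 to 236.2) and 159 in 4 CC007 tumors (142.9 to 204.7). CC002 and CC075 lay between, at 131 and 130 CPM. The range of CC079 lay below those of B6 and CC007, and that of CC001 below that of CC007, while most other ranges overlapped (adjusted p = 0.0032, edgeR). The fitted level relative to B6 was lowest in CC001, at -0.88 on the log2 scale.

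Csf2rb2 had a like pattern in part. Its median in macrophages was 41.0 CPM in CC001 (33.7 to 77.7), 48.0 in CC080 (42.4 to 75.4), 50.1 in CC079 (40.7 to 65.8) and 55.5 in CC036 (34.8 to 82.1). It was 67.96 in CC007, 68.9 in CC002, 75.9 in B6 (64.8 to 89.7) and 79.7 in CC075 (61.1 to 108.1). The adjusted p was 0.00031 (edgeR). CC036 was near B6 for Csf2rb (-0.10 on the log2 scale) but lower for Csf2rb2 (-0.49).

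Csf1r differed less in size. Its medians in macrophages ran from 363 CPM in CC036 (316.2 to 413.1) to 487 CPM in CC007 (365.2 to 503.8), with CC079 at 444 CPM and B6 at 416 CPM (adjusted p = 0.028, edgeR). Csf2ra did not pass, with strain medians between 176 and 210 CPM (adjusted p = 0.59), nor did Csf1, with medians from 3.82 CPM in CC075 to 9.21 CPM in CC036 (adjusted p = 0.056).

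**Figure D4:**
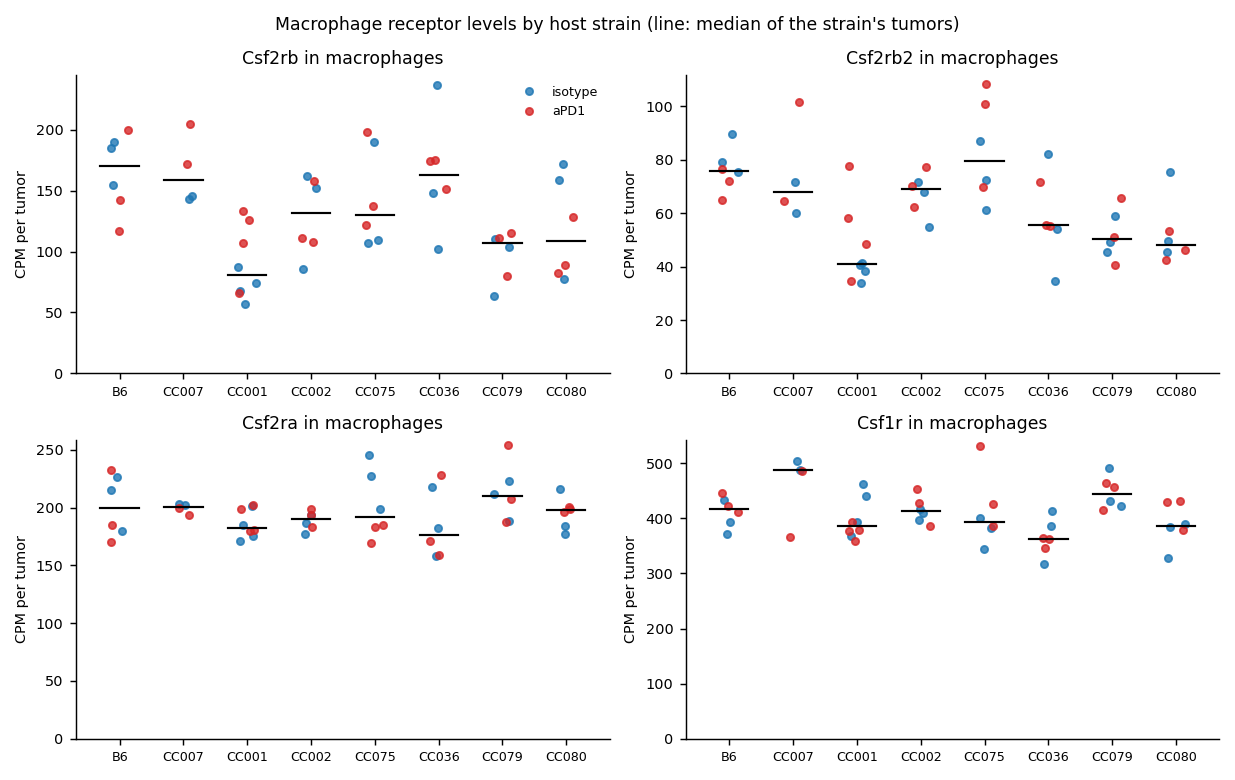
Level per tumor (vertical axis, CPM) of Csf2rb, Csf2rb2, Csf2ra and Csf1r in macrophages by host strain (horizontal axis), with a point for each tumor, blue for isotype and red for aPD1, and a line at the median. Csf2rb and Csf2rb2 sit lowest in CC001 (medians 80.7 and 41.0 CPM), while Csf2ra medians stay between 176 and 210 CPM.

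The make-up of the macrophages also differed between strains, in part in the order of these levels. Cluster 4, which had most Csf2rb, made up a median of 4.20% of macrophages in CC001 tumors and 8.33% in B6 tumors, and cluster 26, with little Csf2rb, 33.1% and 19.7%. CC036 and CC007 had most of cluster 4 (9.60% and 11.7%) and least of cluster 26 (15.9% and 18.3%). For these clusters CC079 and CC080 did not follow this order. They had more of cluster 4 (6.01% and 6.74%) and less of cluster 26 (23.7% and 22.9%) than CC002 (5.78% and 27.97%), but less Csf2rb. Cluster 2 held the most Csf2rb UMIs of the macrophage clusters (14332), and its median share was lowest in CC001 (18.4%) and CC079 (21.8%). It was 24.6% in CC002, 29.0% in CC080 and CC007, 30.3% in CC075, 31.0% in CC036 and 35.0% in B6. The part of the make-up in the strain levels was not tested. The strain difference was also measured within single clusters, a choice made after seeing the data. In cluster 26 alone, Csf2rb2 (adjusted p = 1.8e-05), Csf2rb (0.00020) and Csf1r (0.0084, edgeR) passed, against 29.9% of all genes. There the Csf2rb2 median was 30.6 CPM in CC001, 28.6 in CC080, 48.1 in B6 and 57.4 in CC075. In cluster 2 alone, Csf2rb2, Csf2rb, Csf1r and Csf1 passed (37.3% of all genes), and in cluster 5 alone Csf2rb2 and Csf2rb (21.2%). No fit of a single cluster had the pool as a block.

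Pools limited the comparison. CC001 and CC079 shared pools 1 and 2, whose 8 tumors had 63.4 to 132.9 CPM of Csf2rb in macrophages. B6 and CC007 came only from pools 6 to 8, whose 12 tumors had 117.1 to 236.2 CPM. With the pool as a block, which compares strains only within pools, no member passed in macrophages. The adjusted p was then 0.053 for Csf2rb2, 0.68 for Csf2rb and 0.45 for Csf1r, and 12.5% of all genes passed.

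In dendritic cells, 1 of 4 members tested differed among strains, Csf2rb2 (adjusted p = 0.047, edgeR), against 15.8% of all genes. Its median was highest in CC075 (118.6 CPM, 94.9 to 122.2) and lowest in CC080 (73.5 CPM, 67.9 to 91.1), with no overlap between those strains. In cDC2 alone, none of 4 members passed, against 11.4% of all genes, at an adjusted p of 0.145 or more (edgeR), with Csf2rb at an unadjusted p of 0.030. In all cells together, Csf2rb2 and Csf2rb passed of 6 (43.7% of all genes), at adjusted p of 0.0060 and 0.012. With the pool as a block, no member passed in dendritic cells (Csf2rb2 at an adjusted p of 0.14, 4.14% of all genes) or in all cells (Csf2rb2 at 0.45 and Csf2rb at 0.94, 6.92% of all genes). Without the block, both also passed without cluster 20 (adjusted p = 0.0031 and 0.0067), a choice made after seeing the data, against 45% of all genes.

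In T/NK cells, 1 of 5 members passed, Csf2ra (adjusted p = 0.0074, edgeR), against 22.7% of all genes. With the pool as a block, none did (Csf2ra at an adjusted p of 0.25, 6.33% of all genes). Its median ran from 7.16 CPM in CC036 to 20.4 CPM in CC079. These counts were mostly those of cluster 12, and the summed macrophage markers in T/NK cells had their highest median in the same strain, 2149 CPM in CC079, against 348 to 818 CPM in the others. Without cluster 12, also left out after seeing the data, Csf2ra no longer passed the filter on low counts, and none of the 2 members tested, Csf2 and Csf1, was called by edgeR (21.3% of all genes). Csf2 had an unadjusted p of 0.024 there. Csf2 in T/NK cells did not pass (adjusted p = 0.071), with strain medians from 12.6 CPM in CC001 to 73.1 CPM in CC036 and a highest tumor of 431 CPM, a CC036 aPD1 tumor. DESeq2 made more calls for host strain, with 4 of 5 members in macrophages (57.7% of all genes), 4 of 5 in T/NK cells (26.6%), 3 of 4 in dendritic cells (20.6%) and 3 of 6 in all cells (52.7%).

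The next comparison asked whether the members differed by response class, over both treatments, in 38 tumors with all 4 groups in the same edgeR fit. Folds are log2 values of responder over non-responder strains with their standard errors. No member passed in macrophages, where 6.52% of all 11873 genes did. None passed in T/NK cells (2.08% of all genes, 2.13% without cluster 12), dendritic cells (1.26%) or all cells (3.2%). DESeq2 called no member either. At an unadjusted p under 0.05, 1 of 5 members tested passed in macrophages, 1 of 3 in T/NK cells, 2 of 4 in dendritic cells and none of 6 in all cells, against 19.9%, 14.3%, 12% and 14% of all genes.

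Csf2rb2 came closest in macrophages. In responder strains it had 33.7 to 86.9 CPM (median 58.0) under isotype and 34.7 to 108.1 CPM (69.8) under aPD1. The non-responder strains had 34.8 to 82.1 CPM (49.6) and 40.7 to 71.8 CPM (53.2). The 4 groups overlapped widely, and the fold was 0.28 ± 0.13 (adjusted p = 0.23). In dendritic cells it was 0.27 ± 0.09 (adjusted p = 0.14). CC001, a responder strain, had the lowest median of all strains in macrophages, so leaving it out was bound to raise the responder level there. No fit that left out a strain was repeated with the strain as the replicate. Without CC001 the fold was 0.52 ± 0.11 in macrophages (adjusted p = 0.0040, 7.81% of all genes called), 0.33 ± 0.09 in dendritic cells (0.027, 3.72%) and 0.42 ± 0.10 in all cells (0.013, 4.34%). Csf1r in dendritic cells moved the other way without CC001 (-0.40 ± 0.10, adjusted p = 0.015), against -0.22 ± 0.11 with it. The summed macrophage markers in dendritic cells had medians of 1839 CPM (isotype) and 2017 CPM (aPD1) for responder strains and 2495 and 2553 CPM for non-responder strains. By strain they were 3284 CPM in CC001, 1446 in CC002 and 2001 in CC075, against 2313 in CC036, 2384 in CC080 and 3057 in CC079. The responder strains other than CC001 thus had the lowest marker levels of the 6 strains as well as the lower Csf1r, and the part of the markers in the Csf1r value was not tested. In macrophage cluster 26 alone, chosen after seeing the data, the fold of Csf2rb2 was 0.45 ± 0.13 with every strain kept (adjusted p = 0.031, edgeR, 7.38% of all genes called). Cluster 2, fitted in the same way, gave no call of Csf2rb2 for class. Neither cluster was tested with the strain as the replicate. Tumors of 1 strain share its genotype, and with the strain as the replicate (6 sums) the Csf2rb2 fold in macrophages was 0.36 ± 0.20 and no member passed, but only 0.0206% of all genes did.

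Csf2rb did not show this difference. Its medians in macrophages were 97.2 CPM (57.3 to 189.6) for responder and 110.6 CPM (63.4 to 236.2) for non-responder strains under isotype, with a fold of -0.06 ± 0.16 (adjusted p = 0.91). Csf1r was nearly level, at 344 to 462 CPM against 316.2 to 491 CPM in the same isotype groups, with a fold of 0.07 ± 0.05 (adjusted p = 0.53). Csf2ra had a fold of 0.00 ± 0.06 (adjusted p = 0.99). Csf1 in macrophages had medians of 4.38 and 5.55 CPM in those groups and a fold of -0.44 ± 0.24 (adjusted p = 0.31).

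In T/NK cells of responder strains, Csf2 had 9.57 to 161.7 CPM (median 18.1) under isotype and 8.01 to 105 CPM (50.3) under aPD1. In those of non-responder strains it had 8.50 to 165.7 CPM (37.2) and 5.74 to 431 CPM (52.0). The ranges lay over each other, and the fold was -0.75 ± 0.42 (adjusted p = 0.43). Csf1 had group medians between 39.8 and 49.7 CPM and a fold of 0.21 ± 0.26 (adjusted p = 0.79). Csf1r had a fold of -0.72 ± 0.27 in T/NK cells (adjusted p = 0.17), but its counts there were mostly those of cluster 12. The macrophage markers summed in T/NK cells had medians of 570 CPM (isotype) and 615 CPM (aPD1) for responder strains, and 559 and 1496 CPM for non-responder strains. With the pool as a block, Csf1r in T/NK cells passed (-0.94 ± 0.26, adjusted p = 0.034, 3.96% of all genes called), and without CC036 as well (-0.999 ± 0.29, 0.041, 3.87%). With the strain as the replicate (6 sums), none of the 6 members was called in T/NK cells, where only 0.0263% of all genes were. Without cluster 12, Csf1r fell below the filter on low counts.

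**Figure D5:**
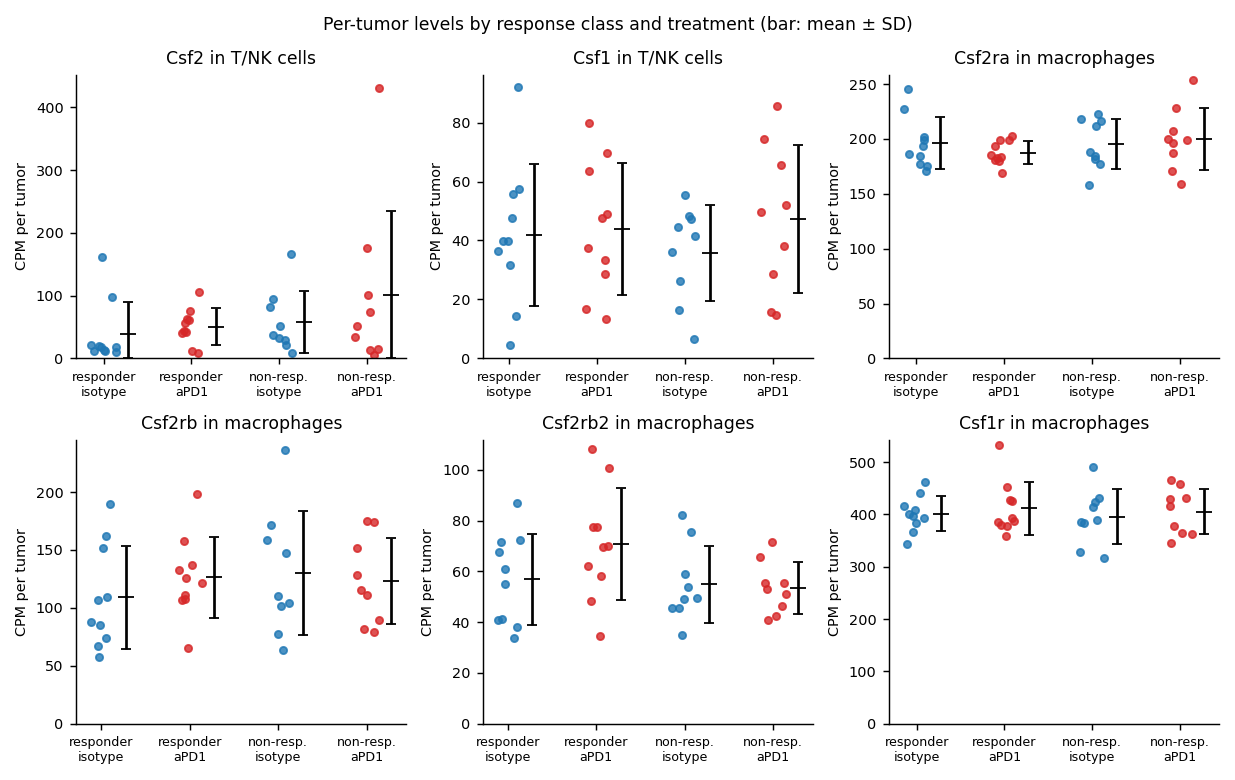
Level per tumor (vertical axis, CPM) of Csf2 and Csf1 in T/NK cells and of the 4 receptor genes in macrophages by response class and treatment (horizontal axis), with a point for each tumor, blue for isotype and red for aPD1, and the mean ± SD beside them, cut at 0. The 4 groups overlap in every panel, and the highest Csf2 value is 431 CPM in a non-responder aPD1 tumor.

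The aPD1 effect at 48 h was tested within each class. Except for a paired value of Csf1r given below, the fits had no term for strain or pool. Isotype and aPD1 tumors of a strain and pool were thus not paired, and strain differences can add to the standard errors. An alternative fit with such pairs as a block called no member. Apart from the Csf1r value, its folds are not given here. No member passed in responder strains, in non-responder strains or for the difference of both effects, in macrophages, T/NK cells, dendritic cells or all cells, and 0% of all genes passed in each of these 12 comparisons by edgeR. Before adjustment, 817 genes for responder and 93 for non-responder strains had p under 0.05 in macrophages, 211 and 254 in T/NK cells, 397 and 88 in dendritic cells and 588 and 507 in all cells. The interaction counts were 677, 236, 220 and 898. DESeq2 called at most 2 genes in any of these comparisons, none of them a member. In macrophages of responder strains, the aPD1 over isotype fold was 0.39 ± 0.18 for Csf2rb2 and 0.29 ± 0.23 for Csf2rb. In non-responder strains it was -0.02 ± 0.19 and -0.08 ± 0.24, and the difference of both effects was 0.41 ± 0.26 for Csf2rb2 (adjusted p = 0.87). Csf1r moved by 0.09 ± 0.08 and 0.03 ± 0.08, and Csf2ra by -0.01 ± 0.08 and 0.03 ± 0.08.

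In T/NK cells, the aPD1 over isotype fold of Csf2 was 0.34 ± 0.60 for responder strains and 0.76 ± 0.60 for the others, and that of Csf1 0.09 ± 0.34 and 0.30 ± 0.39. Csf1r in T/NK cells of non-responder strains had the largest aPD1 fold of any member, 1.45 ± 0.38 (adjusted p = 0.82, edgeR, and 0.080 with the isotype and aPD1 tumor of a strain and pool as a block). It had 4.62 to 34.2 CPM in isotype and 13.2 to 160.9 CPM in aPD1 tumors, whose summed macrophage markers also differed, as given above. In all cells, the aPD1 fold of Csf2 was 0.80 ± 0.80 for responder strains and -0.82 ± 0.81 for non-responder ones, and the difference of both was 1.62 ± 1.14 (adjusted p = 0.87).

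Csf2 was also examined in CTL and in the other T/NK clusters apart, with an exact permutation test, two-sided, of log2(CPM + 1) per tumor. There were 8 such tests, including those of the ratios below, and p was adjusted over them by Benjamini-Hochberg. Tumors were regrouped singly, although the tumors of a strain share its genotype and class. In CTL clusters 3 and 13 under isotype, the mean was 3.41 ± 2.20 over 10 tumors of responder and 3.31 ± 3.32 over 8 of non-responder strains (exact permutation p = 0.94, adjusted 0.94). The aPD1 tumors had 4.83 ± 1.88 in 10 and 4.61 ± 3.38 in 6 tumors (exact permutation p = 0.87, adjusted 0.94), the latter of CC036 and CC080 only, since no CC079 aPD1 tumor had the 10 CTL required. In the other T/NK clusters, isotype tumors had 4.87 ± 1.73 and 5.54 ± 1.28 (exact permutation p = 0.35, adjusted 0.78), and aPD1 tumors 5.06 ± 1.87 and 5.26 ± 2.15 (exact permutation p = 0.83, adjusted 0.94). Both sets sum clusters with different Csf2 levels, so these values also depend on the share of each cluster. Cluster 10, which held most Csf2, had a median share of T/NK cells of 3.43% (isotype) and 3.88% (aPD1) in responder strains, and of 5.24% and 2.83% in non-responder strains, with ranges that overlapped.

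The balance of the receptor genes in macrophages was compared within each tumor. The log2 ratio of Csf2rb to Csf2rb2 under isotype was 0.90 ± 0.24 over 10 tumors of responder and 1.18 ± 0.41 over 9 of non-responder strains (exact permutation p = 0.085, adjusted 0.34). In aPD1 tumors it was 0.85 ± 0.21 and 1.16 ± 0.31 (exact permutation p = 0.019, adjusted 0.15). By strain, its median was highest in CC036 (1.53, from 1.08 to 1.65) and lowest in CC075 (0.82, from 0.44 to 1.12). Without CC036 the differences between classes fell to -0.12 and -0.15, and without CC079 they were -0.46 and -0.40, both with an adjusted exact permutation p of 0.033. The regroupings take tumors of a strain as independent, although class is fixed per strain, so this p does not measure the spread between strains. The log2 ratio of Csf1r to Csf2rb did not separate the classes, at 1.97 ± 0.60 and 1.70 ± 0.76 in isotype tumors (exact permutation p = 0.39, adjusted 0.78) and 1.74 ± 0.42 and 1.77 ± 0.56 in aPD1 tumors (exact permutation p = 0.90, adjusted 0.94). Its strain medians ran from 1.16 in CC036 to 2.39 in CC001.

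Genes around the receptors were counted from the same fits, with lists fixed by pathway. For response class in macrophages, where 6.52% of all genes were called, 1 of 9 genes of GM-CSF receptor signalling was called, Ptpn6, the phosphatase SHP-1 (0.17 ± 0.05, adjusted p = 0.047). None of 11 STAT5 feedback and target genes was called, with a median fold of -0.17 against -0.0045 over all genes. Of 11 genes of M-CSF receptor signalling and macrophage identity, 2 were called, Grb2, an adaptor protein, higher in responder strains (0.13 ± 0.04, adjusted p = 0.040) and Mrc1, the mannose receptor, lower (-0.58 ± 0.17, 0.034). In T/NK cells, where 2.08% of all genes were called, Ptpn6 (0.57 ± 0.14, adjusted p = 0.016) and the chemokine gene Ccl4 (1.205 ± 0.32, 0.032) were higher and Tyrobp, an adaptor of myeloid and NK receptors, lower (-0.87 ± 0.21, 0.016) in responder strains. The classes overlapped by strain for each of these genes, in fitted levels relative to B6 (log2 scale). Ptpn6 was lower in responder CC075 (-0.30) than in non-responder CC080 (0.0043). Ccl4 was lower in responder CC001 (-0.58) than in non-responder CC036 (-0.36). Tyrobp was higher in responder CC002 (-0.53) than in non-responder CC036 (-0.70). The other pairs of classed strains followed the folds. Without cluster 12, Ptpn6 and Tyrobp passed again, but Ccl4 did not (1.13 ± 0.32, adjusted p = 0.059, edgeR). Without the block, 1 of 7 tested cytokine genes made with GM-CSF was called, Ccl4, and the median fold of the 7 was 1.00, against -0.0087 over all genes. A pool block (3.96% of all genes called) gave 3 of these 7 as higher in responder strains, Ifng (1.61 ± 0.42, adjusted p = 0.029), Ccl3 (1.38 ± 0.38, 0.038) and Ccl4 (1.25 ± 0.35, 0.038). Ptpn6 and Tyrobp passed there too, and Lyn, Irf4 and Mrc1 were added. In all cells, Mrc1 was again lower (-0.60 ± 0.17, adjusted p = 0.048, 3.2% of all genes called). Under the block, Mrc1 passed neither in macrophages (adjusted p = 0.078) nor in all cells (0.10, edgeR), while Ptpn6 and Grb2 passed in macrophages. These calls take each tumor as a replicate. With the strain as the replicate (6 sums), no gene of any list was called in macrophages, T/NK cells or all cells, where 0.0206%, 0.0263% and 0.0119% of all genes were. No gene of any list was called in dendritic cells for response class, or in any population for aPD1.

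For host strain in macrophages, without the pool in the model, where 50.5% of all genes were called, 7 of 9 genes of GM-CSF receptor signalling passed, 6 of 11 STAT5 genes and 8 of 11 genes of M-CSF receptor signalling and macrophage identity. Of the family of other CSF genes, 3 of 4 tested passed, Csf3r, Kitl and Il3ra. Cish, a STAT5 feedback gene, had its lowest fitted level in CC001 (-1.70 relative to B6, log2 scale, adjusted p = 0.0099). Socs1 was lowest in CC079 (-1.59, adjusted p = 0.0016). Cd163 was 3.86 above B6 in CC036 (adjusted p = 0.00027), and Mrc1 1.37 above (0.0061). With the pool as a block, 1 of 9 genes of GM-CSF receptor signalling, none of 11 STAT5 genes, none of 11 of M-CSF receptor signalling and 1 of 4 other CSF genes, Il3ra, passed, against 12.5% of all genes. The adjusted p was then 0.56 for Cish, 0.13 for Socs1, 0.059 for Cd163 and 0.15 for Mrc1.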

How the data were processed

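Single-cell RNA sequencing (5′ capture) was done by the authors on 12 hashtagged pools. Per the labels and the study's methods, reads were aligned with Cell Ranger to the mm10 (GRCm38) reference and cells were filtered (at most 15% mitochondrial and 45% ribosomal transcripts), clustered with Seurat 5.0.1 and integrated with harmony. The authors deposited UMI counts per gene and cell, not normalized, with pool, hashtagged specimen and cluster of each cell. No doublet caller was added here, and the hashtag counts were not used.

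Here, counts were summed per tumor and population (20 cells or more, 10 for CTL) and given as CPM. Clusters were named where at least 50% of a marker list, and 3 markers, reached 100 CPM. Tests used edgeR 4.0.16 (TMM scaling, its filter on low counts, quasi-likelihood F test, Benjamini-Hochberg over all genes tested, threshold 0.05), with DESeq2 1.42.0 as alternative, in R 4.3.3. Exact permutation tests went through every regrouping of the tumors with numpy 2.4.6, with 1 added to CPM or to the counts of ratios. The class fit was run on simulated independent tumors, without strain or pool effects. It does not show how shared strains affect the p-values. The class of a strain is that of the study's text, since the labels give strains only. Besides the members, the 4 genes of each pathway list with the largest fold past the threshold, and the 5 genes most alike over clusters, could be named. One gene that this rule names for Csf2ra is not reported here. The members and lists were chosen with earlier results of these data known. P-values measure the spread between tumors. Intervals over cells, from scipy 1.17.1, served only to label whether a share of cells with a UMI moved after thinning.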

Additional observations from a re-analysis of the deposited data

Results flagged for a closer look

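Of 80 sets of tumors examined for a single value far from the others, 8 held one, and chance gives about 1 in 20. Each set held the tumors of a response class and treatment, and the nearest value is from the same set. Csf2ra in T/NK cells was lowest of the responder aPD1 tumors in the CC075 tumor of pool 9, at 3.55 CPM (8 UMIs in 681 cells), with the nearest at 7.66 CPM. It was 0 CPM in the CC002 isotype tumor of pool 12 (90 T/NK cells), where 3 counts would be 11.9 CPM, against 3.92 CPM in the nearest, and 0 CPM in the CC036 isotype tumor of pool 9 (132 T/NK cells), where 3 counts would be 9.80 CPM, against 4.60 CPM. Both gaps are within what counting allows. Csf1r in T/NK cells was also 0 CPM in that CC002 tumor, against 4.52 CPM. In dendritic cells, Csf2rb reached 340.4 CPM in the CC036 isotype tumor of pool 8 (137 UMIs in 77 cells), with the nearest non-responder isotype tumor at 203 CPM.

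Over all cells, Csf2ra was lowest of the responder aPD1 tumors in the CC075 tumor of pool 9, at 112.1 CPM, with the nearest at 143 CPM. Csf2rb was lowest of the responder aPD1 tumors in the CC001 tumor of pool 1, at 54.3 CPM, with the nearest at 95.6 CPM. Csf1r was lowest of the responder isotype tumors in the CC002 tumor of pool 12, at 223 CPM (248 cells), with the nearest at 280 CPM.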

How the results depend on the processing

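Depth limits Csf2 most, with 1959 UMIs over 48 tumors, and Csf1 in macrophages. Leaving out 1 strain changed calls for response class. Without CC001, 1 member was called in macrophages (7.81% of all genes), 2 in dendritic cells (3.72%) and 1 in all cells (4.34%), and without CC036 1 in T/NK cells (3.87%), against 0 in each with every strain. The pool as a block gave 1 call in T/NK cells for class and 0 in all 4 populations for host strain. For host strain, DESeq2 called 4 members in T/NK cells (26.6% of all genes) and 3 in dendritic cells (20.6%). Chosen after seeing the data, cluster 26 alone gave 1 call for class, and T/NK cells without cluster 12 and cluster 14 alone gave 0 for strain. Csf2 in CTL reversed with 10 added to CPM (-0.258 isotype, -0.160 aPD1), for isotype without CC075 (-0.245) and CC079 (-1.01), and for aPD1 without CC001 (-0.174) and CC080 (-1.27). In other T/NK cells under aPD1 it reversed without CC001 (0.524) and CC036 (0.846). The log2 ratio of Csf1r to Csf2rb reversed without CC001 (-0.107, isotype), CC075 (0.0444), CC079 (0.157) and CC080 (0.120, aPD1). That of Csf2rb to Csf2rb2 passed without CC079 (-0.457 and -0.402), with tumors regrouped singly across strains. Shares of cells with a UMI were 23.8% (Csf2, cluster 10), 48.8% (Csf2ra, cluster 5), 55.0% (Csf2rb2, cluster 18), 35.2% (Csf1, cluster 16) and 73.0% (Csf1r, cluster 9). In the 581, 10458, 431, 153 and 949 of these cells with at least 1000 UMIs they were 25.1%, 53.4%, 57.3%, 34.6% and 76.3%, and 16.4%, 22.6%, 30.2%, 28.8% and 37.8% after thinning to 1000 UMIs. The causes were not tested. CTL of aPD1 tumors with at least 50 cells could not be tested. Of 1410 values of single members under alternatives, 1254 kept direction and call, 9 lost and 16 gained a call, and 131 without a call changed sign.

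Counts over all genes moved as follows. Of the genes called for class, 774 in macrophages became 304 in pools 1 to 6, 327 in pools 7 to 12 and 3 with strain as the replicate. The 150 in T/NK cells became 286 with the pool as a block, 234 without the filter, 34 in pools 7 to 12, 3 with strain as the replicate, and between 95 and 298 without CC002, CC075, CC036 or CC080. The 107 in dendritic cells became 174 by DESeq2, 276 with the pool block, 36 in pools 1 to 6, 26 in pools 7 to 12, 6 with strain as the replicate, and between 67 and 330 without CC001, CC002 or CC036. The 432 in all cells became 145 in pools 1 to 6, 147 in pools 7 to 12 and 2 with strain as the replicate. For host strain, the pool block took 6565 genes to 1622 in macrophages, 2215 to 617 in T/NK cells, 1701 to 446 in dendritic cells and 6610 to 1048 in all cells. For aPD1, where edgeR called 0, alternatives called at most 6.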
